A study of Drosophila melanogaster with 9 samples.

Results

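Transcripts of 113 genes from the cuticle protein families of Drosophila melanogaster were followed on 9 microarrays of embryos staged 10 to 13. The genes were chosen by name. A probe set entered if its single gene symbol began with Cpr and a digit, Twdl, Lcp and a digit, Ccp84, Edg and a digit, Acp65A, Cpap or obst-, or was Pcp. Such symbols were borne by 116 probe sets, and for a gene with more than 1 of them the probe set with the highest mean over the 9 arrays was kept. The 113 genes are part of 11982 genes with 1 symbol on the array and of 18769 probe sets in all. They comprised 66 Cpr genes, 24 Twdl genes, 8 obst genes, 7 Lcp genes, 3 Ccp84 genes, 3 Edg genes, Pcp and Acp65Aa. No symbol began with Cpap. Another 6 probe sets that carry several symbols were left out.

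The insect cuticle is a layered coat of chitin and protein that epidermal, tracheal, foregut and hindgut cells secrete at their apical side. In the fly embryo it is laid down after dorsal closure, later than the stages sampled here. The Cpr, Lcp, Ccp84, Pcp and Acp65A proteins, with Edg78E and Edg84A, carry the Rebers and Riddiford consensus, a chitin-binding stretch, and the prefixes Lcp, Pcp and Acp stand for larval, pupal and adult cuticle. Edg genes were named as ecdysone-dependent genes. Twdl (Tweedle) proteins are a separate insect family of secreted cuticle proteins, and a dominant TwdlD allele makes larvae and pupae squat. The obst (obstructor) proteins bind chitin through peritrophin-type domains, and obst-A is known for its place in the newly forming cuticle matrix of epidermis and trachea.

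The study asked what the loss or the excess of cabut (cbt), a zinc finger transcription factor needed for dorsal closure, does to embryonic transcripts. There were 3 groups of 3 arrays, each array hybridised with biotin-labelled total RNA of whole dechorionated embryos. The mutant group was homozygous for the allele cbtEP(2)2237E1, and these embryos were sorted by their lack of GFP from a stock balanced over Cy0, twi-eGFP. The control group was w1118, also passed through the embryo sorter. In the overexpression group the epidermal driver 69B-Gal4 drove UAS-Cbt, and no driver-only group was analysed here. About 1000 embryos were used for each mutant and each overexpression sample. In whole embryos, fewer cells of a type and less RNA per cell cannot be told apart. The labels do not state whether a group's samples are separate collections, and the p-values therefore rest on a spread that may be technical.

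The level of cbt was 6.22, 6.05 and 7.90 log2 units in w1118, 4.25, 4.70 and 3.85 in the mutant and 3.17, 3.16 and 3.74 on the arrays labelled overexpression, which are therefore named by their label here. Whether this probe set also reads the UAS-Cbt transcript is not known here. The w1118 arrays also split, with replicate 2 apart from replicates 1 and 3. Over the 113 genes, w1118 replicates 1 and 3 correlated at 0.988 with each other, whereas replicate 2 correlated with them at 0.736 and 0.748 and with the 3 arrays labelled overexpression at 0.877, 0.932 and 0.805. Its correlations with the 3 mutant arrays were 0.870, 0.864 and 0.870. Poly-A controls, which are spiked into the RNA before labelling, averaged 1.91 and 2.42 on w1118 replicates 1 and 3. On the other arrays, w1118 replicate 2 among them, they averaged 3.09 to 4.03. The counts of genes that passed against w1118 are given with and without replicate 2. Which side of this split is typical of w1118 is not known here. The 5 epidermal markers grh, ovo, shot, crb and Egfr had array medians of 5.20 to 6.84 in w1118, 5.0 to 5.6 in the mutant and 4.69 to 4.84 under the overexpression label.

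Most cuticle protein genes gave a signal above background in w1118 and in the mutant, before the stage of cuticle secretion. Background was the highest of 17 Tag control probe sets, which have no fly target, and it lay between 0.58 and 1.20 log2 units depending on the array. The group mean exceeded the mean background in w1118 for 82 genes (72.6%, against 58.4% of all probe sets). It did so in the mutant for 79 genes (69.9%, against 56.8%) and under the overexpression label for 54 genes (47.8%, against 47.0%). On every array of the group, 58, 65 and 33 of the 113 genes exceeded background, in that order. Of the 18769 probe sets, 8987, 9578 and 7643 did so. By this count the share of the genes was larger than that of all probe sets in w1118 and the mutant. Under the overexpression label it was smaller. In all, 88 genes exceeded it in at least 1 group mean, and 52 of them did so in all 3 group means. Another 22 genes exceeded it in w1118 and the mutant but not under the overexpression label, 7 in w1118 alone, 5 in the mutant alone and 1, Cpr47Ec, under the overexpression label alone. Cpr92A exceeded it in w1118 and under the overexpression label but not in the mutant. Background itself averaged 0.70 in w1118, 0.71 in the mutant and 1.08 under the overexpression label. With the median of all probe sets of each array as the level to exceed, the counts were 68, 64 and 57 genes.

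Background was exceeded by 90, 59 and 90 genes on w1118 replicates 1 to 3, by 79, 84 and 73 genes on the mutant arrays and by 45, 44 and 68 genes on the arrays labelled overexpression. Of all probe sets, the shares were 61.6%, 51.5% and 62.0%, then 57.1%, 60.0% and 55.0%, then 45.4%, 43.8% and 57.5%. The background level was 0.58, 0.95 and 0.58 in w1118, 0.74, 0.63 and 0.75 in the mutant and 1.20, 1.20 and 0.83 under the overexpression label. From the array with the lowest background to that with the highest, the count of genes above it never rose. Without w1118 replicate 2, 90 genes exceeded background in the w1118 mean. The part of the background level in these counts was not tested.

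**Figure D1:**
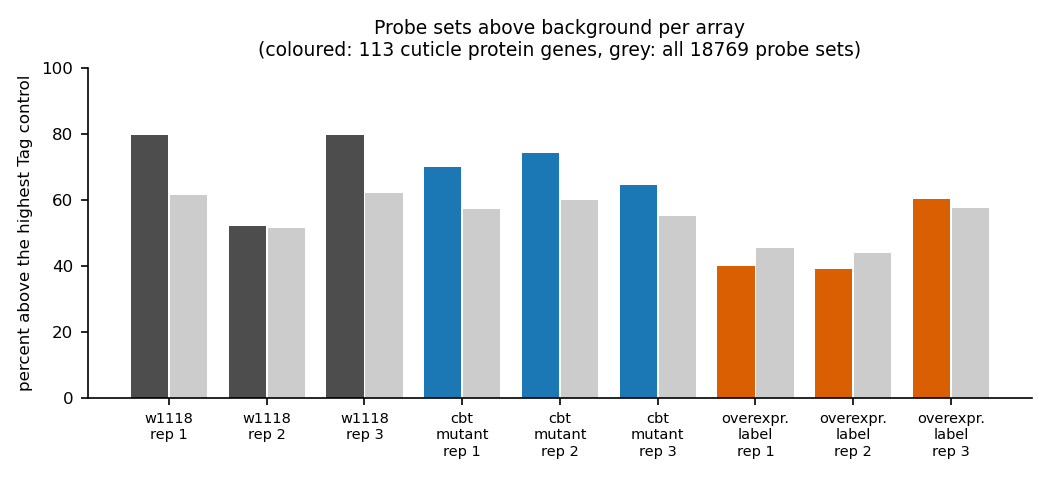
Percentage of probe sets above the highest Tag control on each array, for the 113 cuticle protein genes (coloured bars by group) and for all 18769 probe sets (grey bars). The coloured bar is at 79.6% on w1118 replicates 1 and 3, at 52.2% on replicate 2 and at 39.8%, 38.9% and 60.2% on the arrays labelled overexpression.

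The families differed in how many genes were detected. Of 24 Twdl genes, 21 exceeded background in the w1118 mean, 20 in the mutant and 15 under the overexpression label. The 66 Cpr genes gave 41, 41 and 27, the 7 Lcp genes 6, 6 and 4, and the 8 obst genes 6, 5 and 4. Background was exceeded on all 9 arrays by 33 of the 113 genes and by 7488 of the 18769 probe sets. It was exceeded on none of them by 4862 probe sets and by 9 genes, namely Cpr12A, Cpr30B, Cpr47Ea, Cpr47Ee, Cpr49Ah, Cpr50Ca, Cpr97Eb, obst-I and TwdlS. Pcp, a pupal cuticle protein gene, stood at 0.62, 1.49 and 0.68 in w1118 and at no more than 0.95 on the other 6 arrays. Acp65Aa, an adult cuticle protein gene, stood between 0.79 and 1.25 on all 9 arrays. These genes of later stages thus lay near background. Edg78E and Edg84A also lay low, between 0.53 and 1.22 on all arrays.

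**Figure D2:**
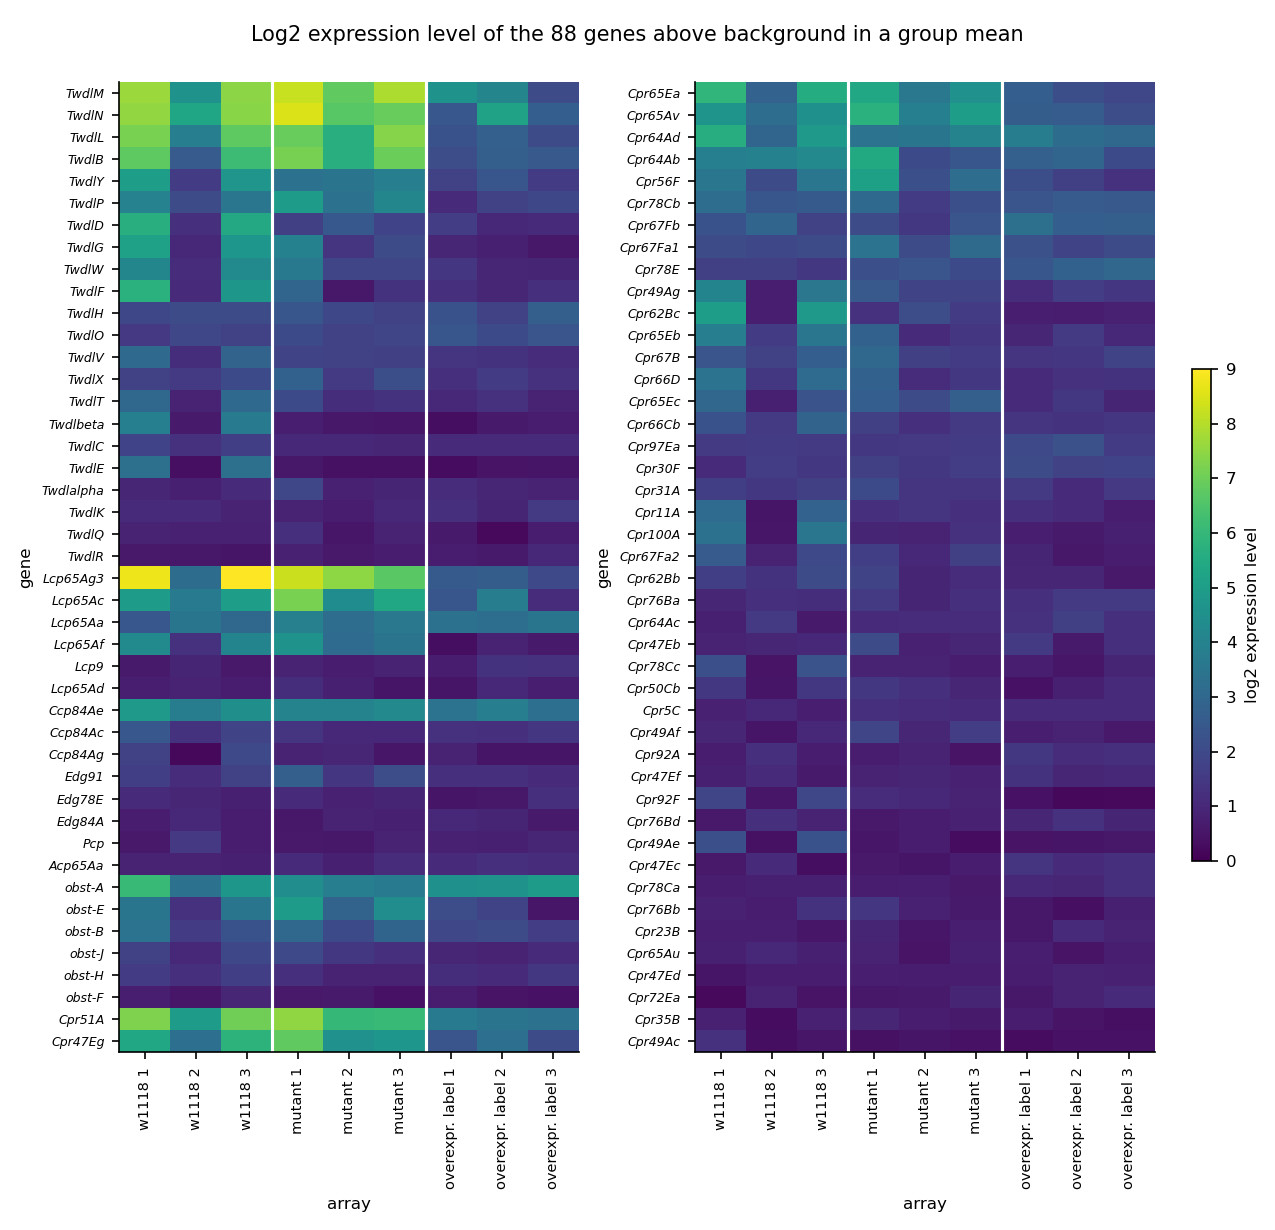
Log2 level (colour, dark blue low and yellow high) of the 88 cuticle protein genes that exceeded background in at least 1 group mean, by array (columns) and gene (rows, by family). In the rows of TwdlM, TwdlN, TwdlL, TwdlB, Lcp65Ag3 and Cpr51A, w1118 replicates 1 and 3 and the mutant arrays are bright, and w1118 replicate 2 and the arrays labelled overexpression are darker.

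TwdlM, TwdlN, TwdlL and TwdlB, all Tweedle genes of 1 cluster on 3R, shared a profile over the arrays. TwdlM stood at 7.64, 4.61 and 7.43 in w1118, at 8.26, 6.80 and 7.90 in the mutant and at 4.61, 4.10 and 2.06 under the overexpression label. TwdlN stood at 7.53, 5.32 and 7.41, at 8.52, 6.67 and 6.92, and at 2.44, 5.18 and 2.70 in the same order. TwdlL stood at 7.19, 3.85 and 6.77 in w1118, at 6.90, 5.63 and 7.36 in the mutant and at 2.26, 2.76 and 2.05 under the overexpression label. In all 3 genes every mutant array was above every array labelled overexpression, and w1118 replicate 2 fell below the mutant range. TwdlB showed the same order, with 6.76, 2.57 and 6.17 in w1118, 7.16, 5.66 and 6.98 in the mutant and 2.13, 2.71 and 2.51 under the overexpression label. There, w1118 replicate 2 lay inside the overexpression range. TwdlY, on the X chromosome, stood at 5.01, 1.61 and 4.71 in w1118, at 3.39, 3.46 and 3.84 in the mutant and at 1.77, 2.40 and 1.58 under the overexpression label, so that its mutant arrays lay between w1118 replicates 1 and 3 and the rest.

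Larval cuticle protein genes of the Lcp65 group included similar profiles. Lcp65Ag3 stood at 8.78, 3.18 and 9.15 in w1118, at 8.27, 7.46 and 6.71 in the mutant and at 2.53, 2.64 and 2.0 under the overexpression label. Lcp65Ac stood at 4.94, 3.73 and 5.01 in w1118, at 7.19, 4.38 and 5.40 in the mutant and at 2.42, 3.78 and 1.13 under the overexpression label. Lcp65Af stood at 4.29, 1.27 and 4.05 in w1118, at 4.57, 3.14 and 3.46 in the mutant and at 0.32, 0.86 and 0.66 under the overexpression label. The mutant arrays of these 3 genes again lay above all arrays labelled overexpression, and for Lcp65Af all of the latter were below their own background. Lcp65Aa behaved otherwise, with 2.45, 3.51 and 2.99 in w1118, 3.93, 3.22 and 3.61 in the mutant and 3.35, 3.24 and 3.49 under the overexpression label. Its groups overlapped in each comparison.

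Several Cpr genes had such a profile too. Cpr51A stood at 7.27, 4.98 and 7.07 in w1118, at 7.52, 6.01 and 6.07 in the mutant and at 3.75, 3.45 and 3.35 under the overexpression label. Cpr47Eg stood at 5.39, 3.28 and 5.82, at 6.79, 4.55 and 4.74, and at 2.38, 3.30 and 2.04 in the same order. Both genes had every mutant array above every array labelled overexpression. Cpr65Av stood at 4.67, 3.21 and 4.53 in w1118, at 5.75, 3.89 and 5.03 in the mutant and at 2.65, 2.63 and 2.13 under the overexpression label. Cpr65Ea stood at 5.93, 2.85 and 5.57 in w1118, at 5.38, 3.62 and 4.54 in the mutant and at 2.69, 2.18 and 1.90 under the overexpression label. For both, w1118 replicate 2 lay between the mutant arrays and those labelled overexpression. Cpr64Ad differed from them, since its mutant values of 3.43, 3.49 and 4.02 overlapped those under the overexpression label, 3.77, 3.18 and 3.0, and only w1118 replicates 1 and 3, at 5.60 and 4.87, stood higher.

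The obst genes did not share 1 profile. obst-A stood at 6.06, 3.41 and 4.76 in w1118, at 4.43, 3.86 and 3.67 in the mutant and at 4.53, 4.63 and 4.98 under the overexpression label, so here the arrays labelled overexpression lay above all mutant arrays. obst-E stood at 3.48, 1.29 and 3.50 in w1118, at 4.94, 2.87 and 4.42 in the mutant and at 2.12, 1.83 and 0.53 under the overexpression label. A further probe set of obst-E did not show this, with 1.77 to 1.96 in the mutant and 2.15 to 2.46 under the overexpression label. obst-B, whose protein also binds chitin, stood at 3.05, 2.04 and 2.91 in the mutant and at 1.91, 2.05 and 1.65 under the overexpression label, and these ranges overlapped slightly. Ccp84Ae stood at 4.84, 3.82 and 4.49 in w1118, at 4.01, 4.04 and 4.25 in the mutant and at 3.44, 3.84 and 3.29 under the overexpression label. Edg91 stood at 1.65, 1.13 and 1.73 in w1118, at 2.73, 1.44 and 2.12 in the mutant and at 1.25, 1.26 and 1.09 under the overexpression label.

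**Figure D3:**
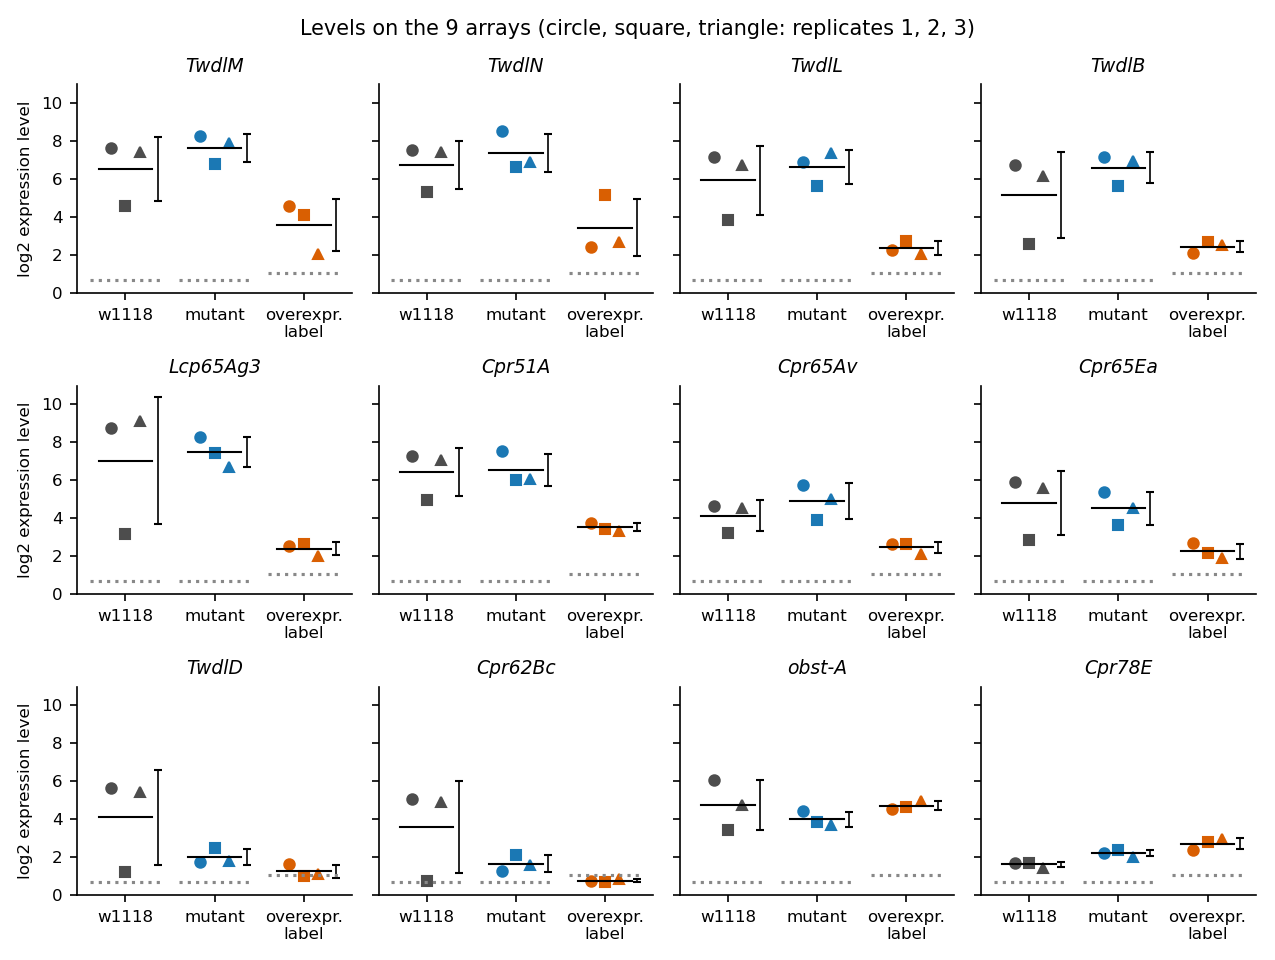
Log2 level of 12 cuticle protein genes on each array (circle, square and triangle for replicates 1, 2 and 3), with the group mean (line), the SD (bar, n = 3) and the mean background of the group (dotted line). For Lcp65Ag3 the mutant points lie between 6.71 and 8.27 and those labelled overexpression between 2.0 and 2.64, while the w1118 points split into 8.78, 9.15 and 3.18.

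Between mutant and w1118 no cuticle protein gene passed the test. With limma's moderated test on all 9 arrays and Benjamini-Hochberg adjustment over 18769 probe sets, 0 of 113 genes had an adjusted p under 0.05, against 0.133% of all probe sets. At an unadjusted p under 0.05 there were 4 genes higher in the mutant (3.54%, against 3.84% of all probe sets) and 7 lower (6.19%, against 5.17%). The groups did not overlap for 4 genes, against 9.79% of all probe sets. The median difference of the 113 genes was -0.01 log2 units, and that of all probe sets was 0.01. TwdlC gave the smallest adjusted p of the Twdl genes, with 1.80, 1.30 and 1.66 in w1118 against 1.02, 0.99 and 0.96 in the mutant and a difference of -0.60 (SE 0.14, adjusted p = 0.275 by limma). Cpr78E stood at 1.71, 1.69 and 1.45 in w1118 and at 2.21, 2.39 and 2.03 in the mutant, a difference of 0.59 (SE 0.17, adjusted p = 0.394 by limma). Neither gene overlapped between the groups, and neither passed the threshold. Without w1118 replicate 2, TwdlC passed, with a difference of -0.74 (SE 0.10, adjusted p = 0.00225 by limma), and Cpr78E did not, at 0.63 (SE 0.20, adjusted p = 0.0588 by limma). In that fit, 28 genes passed while 21.2% of all probe sets did, with 2 genes higher (against 9.11% of all probe sets) and 26 lower (23.0%, against 12.1%).

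Nor did a cuticle protein gene pass between the arrays labelled overexpression and w1118. The limma fit of all 9 arrays gave 0 of 113 genes at an adjusted p under 0.05, against 0.373% of all probe sets. At an unadjusted p under 0.05, 8 genes were higher under the overexpression label (7.08%, against 16.3% of all probe sets) and 30 lower (26.5%, against 15.6%). The groups did not overlap for 14 genes that were higher (against 17.0% of all probe sets) and 18 that were lower (against 12.0%). The median difference was -0.18 over the 113 genes and 0.09 over all probe sets. Differences below -1 were seen in 34 genes (30.1%, against 13.7% of all probe sets), and a difference above 1 in 1 gene (0.885%, against 6.45%). That gene was Cpr78E, at 2.39, 2.78 and 2.96 under the overexpression label, with a difference of 1.09 (SE 0.17, adjusted p = 0.054 by limma). TwdlO, at 1.5, 1.92 and 1.76 in w1118 and at 2.42, 2.02 and 2.38 under the overexpression label, differed by 0.55 (SE 0.16, adjusted p = 0.098 by limma). Among the lower genes, Cpr51A differed by -2.92 (SE 0.64, adjusted p = 0.087 by limma) and Lcp65Ag3 by -4.65 (SE 1.42, adjusted p = 0.099 by limma). Every array labelled overexpression was below every w1118 array for both. Without w1118 replicate 2 all 4 of these genes passed by limma, Cpr51A at -3.65 (SE 0.42, adjusted p = 0.000407), Lcp65Ag3 at -6.57 (SE 0.42, adjusted p = 7.31e-05), Cpr78E at 1.13 (SE 0.20, adjusted p = 0.00265) and TwdlO at 0.64 (SE 0.17, adjusted p = 0.0169). In that fit, 50 genes passed while 40.6% of all probe sets did, with 9 genes higher (7.96%, against 19.6%) and 41 lower (36.3%, against 21.0%). The median difference of the 113 genes was then -0.31.

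The mutant was also set against the overexpression label, a contrast that leaves w1118 out except in the spread of the joint fit. In the fit of all 9 arrays, 0 of 113 genes had an adjusted p under 0.05 by limma, against 0.256% of all probe sets. At an unadjusted p under 0.05, 9 genes were higher and 19 lower under the overexpression label. The lower genes were 16.8% of the 113 against 9.17% of all probe sets, and the higher ones 7.96% against 9.71%. No overlap between these groups was seen for 30 genes that were lower (26.5%, against 16.2% of all probe sets) and 15 that were higher (13.3%, against 22.4%). Without w1118 replicate 2, 21 genes passed while 16% of all probe sets did. The median difference was -0.06 over the 113 genes and 0.08 over all probe sets. For the moderated F test over the 3 groups, 0 genes passed, against 0.389% of all probe sets, and 26 genes had an unadjusted p under 0.05 (23.0%, against 24.7%).

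With the 6 arrays of these groups fitted alone, 19 of the 113 genes passed an adjusted p under 0.05 by limma, against 13.8% of all probe sets. Of these, 17 were lower under the overexpression label (15%, against 7.54% of all probe sets) and 2 were higher (1.77%, against 6.28%). The lower genes were 7 Twdl genes (TwdlB, TwdlL, TwdlM, TwdlN, TwdlP, TwdlV and TwdlY), 7 Cpr genes (Cpr47Eg, Cpr51A, Cpr62Bc, Cpr65Av, Cpr65Ea, Cpr65Ec and Cpr92F), the larval cuticle genes Lcp65Ag3 and Lcp65Af, and obst-E, of which the further probe set did not show it. In this fit Lcp65Ag3 differed by -5.09 (SE 0.39, adjusted p = 0.0029), TwdlL by -4.27 (SE 0.44, adjusted p = 0.0058) and TwdlB by -4.15 (SE 0.40, adjusted p = 0.0051). Lcp65Af, at a mean of 3.73 in the mutant and 0.61 under the overexpression label, was below background there and so is given as at least 6.26-fold lower (adjusted p = 0.0083). Cpr62Bc and Cpr92F were also below background on every array labelled overexpression. Cpr62Bc had a bound of at least 1.49-fold lower. Cpr92F had no bound, since its mutant mean of 1.02 was below the mean background of 1.08 under the overexpression label. The higher genes were Cpr47Ec and Cpr92A, both close to background. Cpr47Ec, at a mean of 1.24 under the overexpression label and 0.61 in the mutant, was below background on every mutant array and had a bound of at least 1.45-fold higher (adjusted p = 0.0263). Cpr92A was above background on 1 of 3 mutant arrays and 2 of 3 arrays labelled overexpression. Its mean was 1.28 under the overexpression label and 0.68 in the mutant, the latter below the mean background (adjusted p = 0.0462). The fit of all 9 arrays gave the same differences with adjusted p-values of 0.150 for Lcp65Ag3, 0.102 for TwdlL and 0.126 for TwdlB.

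That count rested in part on single arrays. Leaving out mutant replicate 1, 2 or 3 gave 19, 21 and 8 genes while 18.2%, 7.75% and 5.65% of all probe sets passed. Leaving out overexpression replicate 1, 2 or 3 gave 8, 12 and 1 genes while 4.85%, 6.81% and 0.73% of all probe sets passed. The gene that passed without overexpression replicate 3 was Lcp65Ag3, and it also passed in the other 5 of these fits. Overexpression replicate 3 had the lowest value of its group for TwdlM, Lcp65Ac and obst-E and the lowest background of its group.

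**Figure D4:**
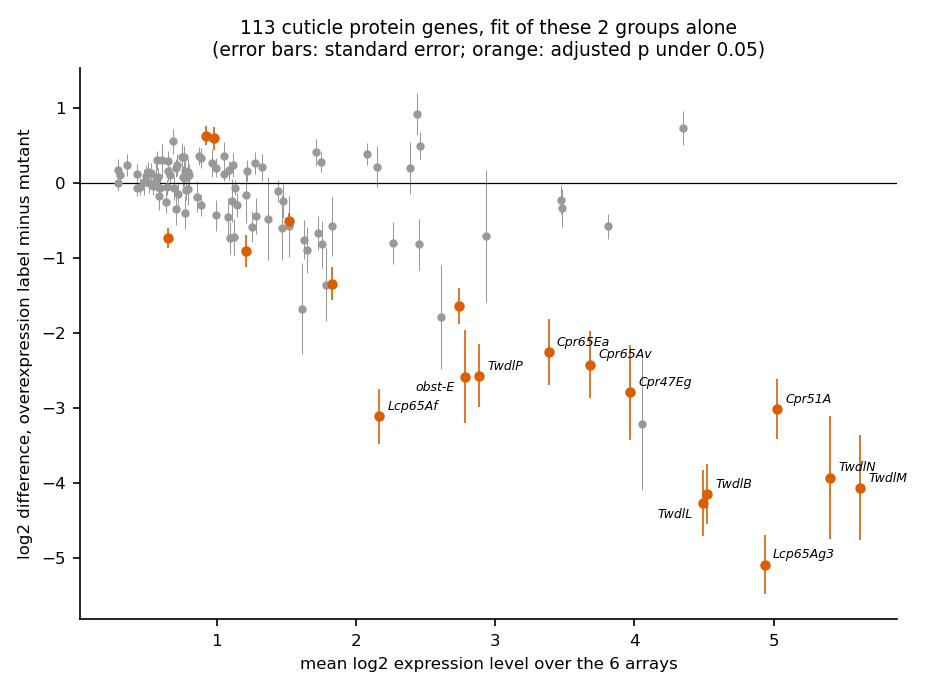
Log2 level under the overexpression label minus that in the mutant (vertical axis, bars are the SE) against the mean log2 level over those 6 arrays (horizontal axis) for 113 cuticle protein genes. The genes in orange passed an adjusted p under 0.05 in the fit of these groups alone, 17 of them below 0 and 2 above, with Lcp65Ag3 lowest at -5.09.

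Some genes, picked out after their values were seen, were highest in w1118 replicates 1 and 3. TwdlD, the Tweedle gene known from its body shape allele, stood at 5.66, 1.21 and 5.44 in w1118, at 1.72, 2.49 and 1.80 in the mutant and at 1.64, 1.02 and 1.10 under the overexpression label. TwdlE stood at 3.32, 0.36 and 3.32 in w1118 and at no more than 0.59 on the other 6 arrays. Cpr62Bc stood at 5.06, 0.76 and 4.88 in w1118, at 1.28, 2.13 and 1.57 in the mutant and at 0.75, 0.69 and 0.82 under the overexpression label. In these 3 genes w1118 replicates 1 and 3 stood above the other 7 arrays. For TwdlD and Cpr62Bc all mutant arrays also stood above w1118 replicate 2 and all arrays labelled overexpression. In all, 30 of 113 genes (26.5%) had w1118 replicates 1 and 3 above the other 7 arrays, against 17.0% of all probe sets, and 7 genes (6.19%) had them below, against 22.1%. Another count of 30 genes (26.5%, against 10.2%) had w1118 replicates 1 and 3 and all mutant arrays above w1118 replicate 2 and all arrays labelled overexpression. Among those above background in a group mean, these shares were 34.1% against 27.0%, 7.95% against 22.8% and 34.1% against 16.5%. That filter keeps genes through the group where they are high. The first and the last of these orders held together for 14 genes, against 5.15% of all probe sets, and at least one of them for 46 genes (40.7%, against 22%).

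Genes next to each other on a chromosome did not all give the same signal. By RefSeq gene order with at most 5 other genes between neighbours, 84 of the 113 genes lay in 19 clusters and 29 lay alone. The largest cluster, on 3R, held 12 Twdl genes, of which 10 exceeded background in w1118, 11 in the mutant and 9 under the overexpression label. It includes TwdlM, TwdlN, TwdlL, TwdlB and TwdlD, described above, and TwdlS, which exceeded background on none of 9 arrays. The next, on 3L, held 11 genes of the Lcp65A and Cpr65A groups with Acp65Aa, of which 8, 8 and 5 exceeded background. Within it Lcp65Ag3, Lcp65Af, Lcp65Ac and Cpr65Av were lower on every array labelled overexpression than on every mutant array, and Lcp65Aa was not. The cluster of 8 Cpr49A genes on 2R gave 4, 2 and 1 genes above background, and that of 7 Cpr47E genes gave 3, 4 and 4.

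**Figure D5:**
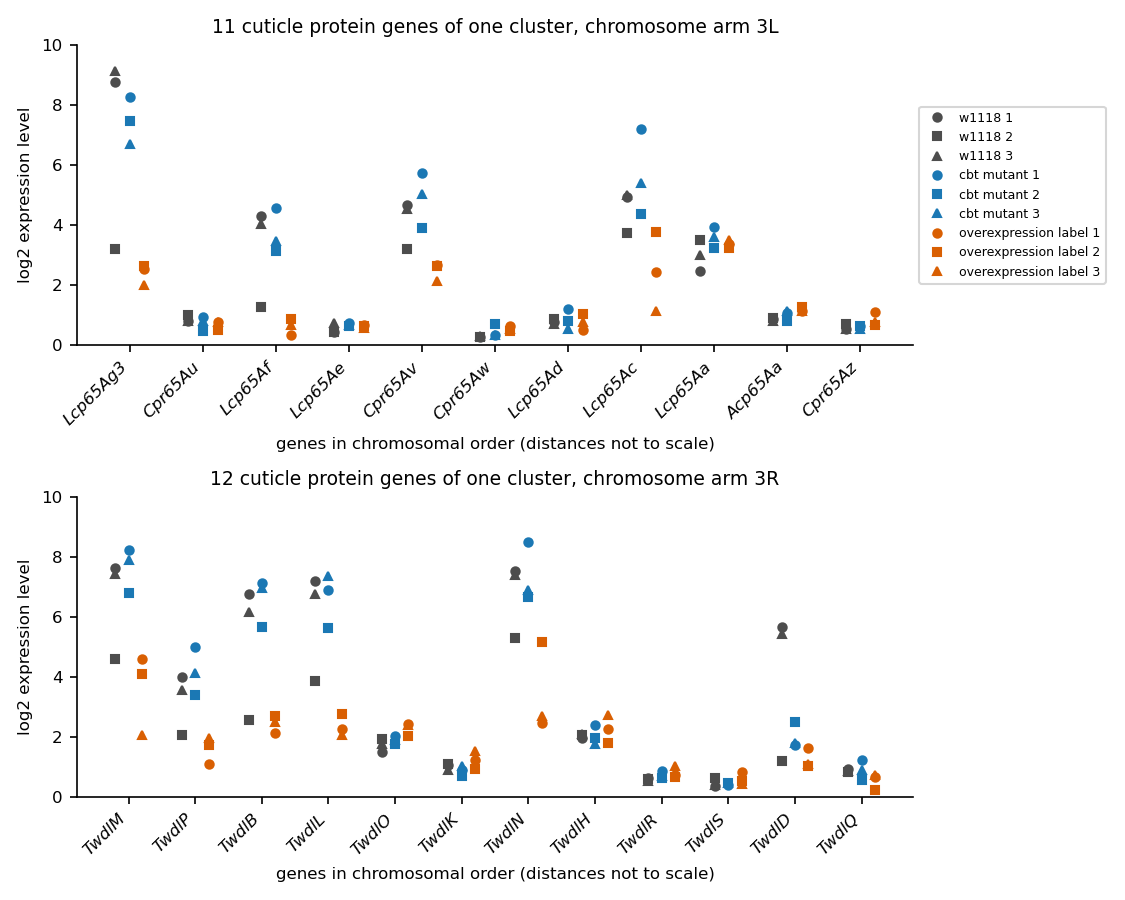
Log2 level on each array (colour by group, symbol by replicate) of the genes in the 2 largest clusters of neighbouring cuticle protein genes, in chromosomal order and not to distance. In the cluster on 3R the mutant points of TwdlM lie between 6.80 and 8.26, while every point of TwdlS stays below background.

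The genes are short, with a median gene length of 1045 bp against 2569 bp over all probe sets with 1 symbol, so length is given beside the array differences. Among genes of 1 to 2 kb, the difference of w1118 replicate 2 from its fellow replicates' mean had a median of -0.46 over 40 cuticle protein genes and of 0.20 over 3506 probe sets. In the same length class the overexpression label minus the mutant had a median of -0.24 and of 0.07. In genes of at most 1 kb, the first of these medians was 0.03 over 51 cuticle protein genes and 0.26 over 1973 probe sets, and the second was 0.06 and 0.14. In genes over 2 kb they were -1.10 and -0.05 over 22 cuticle protein genes, and -0.15 and -0.0005 over 8065 probe sets. No filter on low values was set for these medians.

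Other genes of cuticle formation were counted in the same limma fit. Of 21 measured genes for chitin synthesis and chitin matrix enzymes, 0 passed in any of the 3 comparisons in either direction, and 3 were higher and 3 lower at an unadjusted p under 0.05 between overexpression label and w1118, where 16.3% and 15.6% of all probe sets were. Their median differences were -0.03 (mutant minus w1118), -0.79 (overexpression label minus w1118) and -0.19 (overexpression label minus mutant). Without overlap with the mutant, 7 of the 21 were lower under the overexpression label, where 16.2% of all probe sets were. Only 2, Cht2 among them, were higher without overlap, where 22.4% of all probe sets were. Cht2, a chitinase gene, stood at 3.47, 4.92 and 2.49 in w1118, at 4.74, 3.98 and 4.14 in the mutant and at 6.24, 5.84 and 5.92 under the overexpression label, the opposite order to Lcp65Ag3 (overexpression label minus mutant 1.72, adjusted p = 0.177 by limma). mmy, which makes the activated sugar that chitin is built from, lay between 4.27 and 5.70 on all arrays. Of 20 measured cuticle and matrix proteins outside the name rule, 0 passed, with medians of -0.44, -0.65 and -0.22 in the same order of comparisons. They were mixed between overexpression label and mutant, with 5 lower and 3 higher without overlap under the label. Vajk2, a cuticle protein gene of another family, had every mutant array above every array labelled overexpression, as TwdlL had, with 5.18, 1.84 and 5.39 in w1118, 4.83, 4.09 and 4.75 in the mutant and 1.98, 2.03 and 1.72 under the overexpression label (overexpression label minus mutant -2.65, adjusted p = 0.180 by limma).

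Tanning genes and regulators gave 0 calls as well. The 13 measured tanning and cross-linking genes had medians of -0.12, 0.03 and 0.20, and the 15 measured regulators of epidermal and cuticle differentiation had medians of -1.12, -1.24 and -0.08. At an unadjusted p under 0.05 by limma, 7 of the 15 regulators were lower in the mutant than in w1118, against 5.17% of all probe sets. Under the overexpression label 10 of the 15 were lower than in w1118, against 15.6%. Both are larger shares than those of all probe sets. grh, a transcription factor of epidermal barrier genes, stood at 7.84, 6.2 and 7.78 in w1118, at 5.71, 6.24 and 6.02 in the mutant and at 5.48, 6.05 and 6.19 under the overexpression label. ovo, which shapes epidermal denticles, stood at 6.59, 5.20 and 6.65 in w1118, at 4.63, 5.60 and 5.19 in the mutant and at 4.69, 4.80 and 4.84 under the overexpression label. Both were high on w1118 replicates 1 and 3, and their mutant arrays did not stand apart from those labelled overexpression, unlike the mutant arrays of TwdlL or Lcp65Ag3. The 5 epidermal markers include grh and ovo. Of the other markers among them, 2 were lower on every array labelled overexpression than on every mutant array, and 0 were higher. Of the 15 regulators, 1 was lower in this way and 2 were higher, against 16.2% and 22.4% of all probe sets.

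Some markers of late embryos and of the trachea differed between arrays. Of the late markers Ddc, ple, stw and Jhe, ple, the enzyme that starts dopamine synthesis for tanning, was above background on none of 9 arrays. Ddc, the next enzyme of that route, stood at 2.42, 0.93 and 2.20 in w1118, at 3.93, 1.55 and 2.45 in the mutant and at 1.37, 1.29 and 1.21 under the overexpression label. The late markers did not all go the same way. Besides Ddc, which was lower, 1 was higher on every array labelled overexpression than on every mutant array. On every mutant array 1 late marker was lower than on every w1118 array. The array medians of the 4 markers ranged from 0.84 to 1.48 in w1118, from 1.10 to 2.32 in the mutant and from 0.92 to 1.29 under the overexpression label, and their summed linear levels from 7.76 to 27.4, from 9.05 to 30.3 and from 8.80 to 9.94. Mutant replicate 1, where Ddc was highest, was also the highest mutant array for 69 of the 113 cuticle protein genes (61.1%, against 34.6% of all probe sets). The 5 measured tracheal markers had array medians of 2.77 to 6.0 in w1118, 3.55 to 4.07 in the mutant and 2.98 to 3.35 under the overexpression label. Gasp, a chitin-binding protein gene of the tracheal lining, stood at 8.19, 2.41 and 7.51 in w1118, at 5.03, 3.17 and 4.10 in the mutant and at 3.35, 2.22 and 2.98 under the overexpression label. Markers of other cells also differed between arrays. The array medians of 5 hemocyte markers ranged from 3.62 to 6.77 in w1118, from 4.59 to 5.17 in the mutant and from 3.56 to 4.06 under the overexpression label. Their summed linear levels were instead highest under the overexpression label. These sums ranged from 961 to 1680 in w1118, from 883 to 1478 in the mutant and from 2087 to 2290 under that label. The array medians of 4 foregut and hindgut markers ranged from 3.90 to 5.80, from 3.76 to 4.76 and from 2.92 to 3.55 in the same order of groups. Those of 4 neuron markers ranged from 1.34 to 1.79, from 1.42 to 1.51 and from 1.65 to 1.81. The summed linear levels of these neuron markers did not follow that order. They ranged from 55.8 to 355 in w1118, from 53.7 to 113 in the mutant and from 45.9 to 62.6 under the overexpression label. The part of embryo age, of these cell types or of labelling in the differences of the cuticle protein genes was not tested.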

How the data were processed

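RNA was hybridised to Affymetrix Drosophila Genome 2.0 arrays. The deposited table gives a log2 level for each of 18952 probe sets on each array, and the submitters' processing notes name RMA, affy and limma with no versions. The authors' chip definition is unknown here. Tests left out 183 Affymetrix controls. Probe sets were named by the platform annotation, and all 113 genes matched the RefSeq table by gene ID.

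A model with 3 group terms was fitted to the 9 arrays with limma 3.58.1 in R 4.3.3, with moderated tests and Benjamini-Hochberg adjustment over 18769 probe sets (threshold 0.05). The steps were tested on simulated data. With 3 arrays a group, precision is limited. Where a gene was at or below background on all arrays of a group, a bound is given, namely the bright group's mean against the dim group's mean of, per array, the higher of background and own value. Apart from choosing probe sets and the brightest genes and setting genes against background, levels of different probe sets were not compared. By rule, the named genes are the brightest of each family, those with the smallest p per direction and comparison, and those with the widest range of group means. TwdlD, TwdlE, Cpr62Bc and the genes listed only for their detection, their neighbours or their call with 2 groups fitted were named after their values were seen. The genes and lists were chosen with earlier results of these data known. Alternatives covered scaling, filters, array weights, the arrays fitted and the background level. Replicate numbers were not taken to pair the samples, since deviations from group means correlated at -0.37 to 0.26 between samples of the same number.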

Additional observations from a re-analysis of the deposited data

How the results depend on the processing

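None of the named genes passed in the fit of all 9 arrays, so no call could be lost. Direction was followed only for the 42 pairs of named gene and comparison with an unadjusted p under 0.05 by limma. Of their 825 values under the alternatives, 124 passed the threshold and 0 turned direction, which that choice of pairs favours. Differences outside these pairs did turn. Without w1118 replicate 2, mutant minus w1118 went from 0.44 to -1.48 for Lcp65Ag3 (adjusted p = 0.0406 by limma). For TwdlL it went from 0.69 to -0.35. The counts of 0 genes depended on w1118 replicate 2 and on how the arrays were weighed. Leaving out each array in turn gave 0 to 28 genes for mutant versus w1118, 0 to 50 for overexpression label versus w1118, 0 to 21 for overexpression label versus mutant and 0 to 49 for the F test, and in each case the highest count was without w1118 replicate 2. With array weights the counts were 31, 60, 28 and 59 while 28.4%, 47.1%, 20.3% and 46.1% of all probe sets passed. With a term for w1118 replicates 1 and 3 they were 2 for mutant versus w1118, 21 for overexpression label versus mutant and 17 for the F test, while 0.591%, 16% and 9.09% of all probe sets passed. Overexpression label versus mutant gave 19 genes with the 2 groups alone. Taking w1118 replicate 2 as the only control repeats that fit for this comparison, since a lone array adds nothing to the spread. The counts were 1, 8, 8, 12, 19 and 21 with the 2 groups alone and 1 array left out, an alternative chosen after seeing the data.

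Overexpression label versus w1118 gave 1 gene after cyclic loess (0.357% of all probe sets) and 8 of the 31 genes with a mean above 2, and overexpression label versus mutant gave 1 of those 31. Of all probe sets with such a mean, 15.9% and 0.794% passed. In these 31 genes the median differences were 0.23, -1.67 and -1.64. In genes above background in a group mean they were -0.52 for overexpression label versus w1118 and -0.27 for overexpression label versus mutant. These filters keep genes through the group where they are high. Taking w1118 replicate 2 for the sole control, or adding the term for replicates 1 and 3, brought the median of overexpression label versus w1118 to 0.049. The count above background on every array under the overexpression label was 33. With the replicate block, 0 genes passed in all 3 comparisons and the F test, while the probe sets that passed went from 25, 70, 48 and 73 to 11, 17, 30 and 23. The cause of these shifts was not tested. A signal near background limits what can be seen for the 25 genes with no group mean above it.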

Other observations

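Probe sets with several symbols were kept out of the comparisons, and 3 of those 6 exceeded background in all 3 group means. The probe set of the larval genes Lcp65Ag1 and Lcp65Ag2 stood at 8.42, 2.37 and 8.76 in w1118, at 6.18, 6.53 and 5.5 in the mutant and at 1.62, 1.67 and 1.72 under the overexpression label. That of Cpr65Ax1 and Cpr65Ax2 stood at 7.04, 3.02 and 7.11, at 8.29, 6.95 and 6.93, and at 0.97, 2.74 and 1.03 in the same order. Both had every mutant array above every array labelled overexpression, as Lcp65Ag3 had. That of Cpr67Fa1 and Cpr67Fa2 stood at 3.41, 1.58 and 3.39 in w1118, at 5.36, 3.49 and 5.39 in the mutant and at 2.12, 1.82 and 0.79 under the overexpression label, so that here the mutant arrays lay above all w1118 arrays as well. The probe sets of Cpr67Fa1 alone and of Cpr67Fa2 alone overlapped between mutant and w1118, with mutant minus w1118 differences of 0.83 and -0.35. Signals of genes named on 1 probe set cannot be told apart.

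Of 130 protein-coding genes in the RefSeq table whose symbols match the name rule, 113 had a probe set of their own on the array.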
